A study of Mus musculus with 6 samples.

Results

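Epithelial integrins are described here as 10 genes chosen by name, the alpha subunits Itga2, Itga3, Itga5, Itga6 and Itgav and the beta subunits Itgb1, Itgb4, Itgb5, Itgb6 and Itgb8, out of 25528 genes in the count tables. All 10 passed the filter on low counts and were among the 12593 genes tested. The samples were mouse gastric corpus organoids, three-dimensional epithelial cultures that model the lining of the main body of the stomach. The Erbb2_OE_Corpus group overexpressed Erbb2, a receptor tyrosine kinase, and the Ctrl_Corpus group had received an empty vector, with 3 libraries of polyadenylated RNA each, numbered 1 to 3 in both. Strain, age, promoter, the number of animals or lines behind the libraries and the species of the Erbb2 sequence are left unstated by the labels, so that the p-values measure the spread between these libraries, which may be technical.

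Integrins are receptors made of an alpha and a beta subunit that anchor cells to the matrix and pass signals across the membrane. In epithelia, Itgb1 pairs with many alpha subunits, among them the collagen receptor subunit Itga2, the laminin receptor subunit Itga3 and the fibronectin receptor subunit Itga5. Itgb4 pairs with Itga6 to form the laminin receptor of hemidesmosomes, the plaques that tie keratin filaments to the basement membrane. Itgav pairs with Itgb5, Itgb6 or Itgb8 in receptors for ligands that carry the RGD tripeptide, and the pairs with Itgb6 and Itgb8 are known for activating latent TGF-beta.

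Erbb2 itself stood at 342, 349 and 285 CPM in Erbb2_OE_Corpus replicates 1, 2 and 3, against 125, 164 and 128 CPM in the controls. It was 2.35-fold higher with libraries of the same number compared (adjusted p = 3.55e-05 in edgeR blocked on that number, 0.6403 with the group alone). CPM are counts per 1000000 counts after scaling by the trimmed mean of M values. Library totals lay between 18735853 and 22767455 counts, of which the 10 integrin genes held 0.217% to 0.263% in Erbb2_OE_Corpus and 0.165% to 0.229% in the controls. The first principal component of log2 CPM held 57.8% of the variance and set both libraries of replicate 3 apart from the other 4. The gastric and simple epithelial markers, 10 of 10 tested, summed to between 13229 and 14908 CPM in Erbb2_OE_Corpus and between 12801 and 15574 CPM in the controls. Muc1 had the highest level of these and was lower in Erbb2_OE_Corpus in each pair of the same number, with overlap between the groups. Tff1, at 85.0, 187 and 115 CPM in Erbb2_OE_Corpus against 62.8, 73.9 and 28.6 CPM in the controls, was higher without overlap. Cldn18 was higher in each pair, with overlap. In edgeR blocked on the replicate number, 0 of the 10 were called higher and 0 lower. Fibroblast and smooth muscle markers summed to at most 2.15 CPM in Erbb2_OE_Corpus and 2.07 CPM in the controls, with Col1a2, Pdgfrb, Dcn and Lum at 0 counts in every library. In bulk RNA, more cells of a type and more RNA per cell cannot be told apart.

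Among the 10 integrins, Itgav, Itgb4, Itga6 and Itga3 were between 1.27-fold and 1.39-fold higher in the Erbb2_OE_Corpus organoids when libraries of the same replicate number were compared with each other. Itga2 had the largest fitted fold, 1.61, with the widest spread among the abundant genes, and did not pass the test. Itgb1, Itgb5, Itgb6, Itgb8 and Itga5 had fitted log2 fold changes between -0.10 and 0.12, and none of these passed the test. With the group as the single term, edgeR's quasi-likelihood test called 0 of the 10 integrins at an adjusted p under 0.05, where it called 0% of all genes higher and 0% lower. At an unadjusted p under 0.05 that fit had 3 of the 10 integrins, all higher. Among all 12593 genes tested it had 419 in either direction, and 273 of the 12593 (2.17%) were higher. DESeq2 and limma voom without the block also called 0 of the 10. With the replicate number as a block, edgeR called 4 of the 10 integrins higher and 0 lower, beside 2.37% of all genes called higher and 0.723% called lower. The verbs of change below refer to this fit with the block. The median log2 fold change over the 10 integrins was 0.23 with the block, beside -0.01 over all genes tested.

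**Figure D1:**
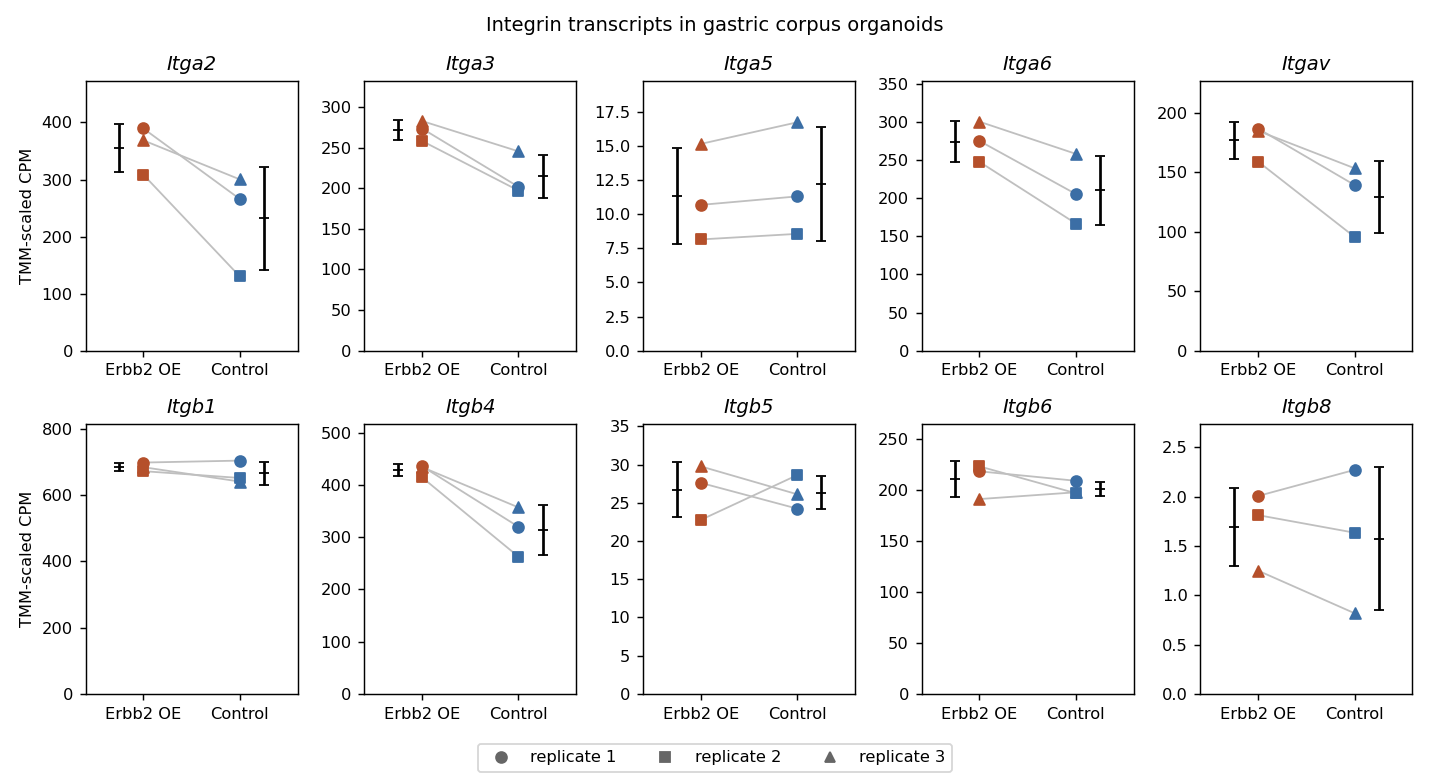
TMM-scaled CPM of the 10 integrin genes in each library, with Erbb2 OE (red-brown) left of control (blue) and grey lines joining libraries of the same replicate number; bars are mean ± SD of 3 libraries and each panel has its own axis from 0. In Itga2, Itga3, Itgav and Itgb4 the groups did not overlap, and Itgb1 stayed between 641 and 704 CPM in all 6 libraries.

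The subunits of the hemidesmosomal laminin receptor were higher together. Itgb4 (ENSMUSG00000020758), whose long cytoplasmic tail binds the keratin linker plectin, stood at 436, 414 and 434 CPM in Erbb2_OE_Corpus replicates 1, 2 and 3, against 320, 263 and 357 CPM in the controls. Every Erbb2_OE_Corpus library was above every control, and the controls were spread more widely. Itgb4 rose 1.38-fold (log2 fold change 0.46, SE 0.08, adjusted p = 0.0123 in edgeR with the block, 0.9997 without it), with log2 CPM ratios of 0.45, 0.66 and 0.28 in pairs 1, 2 and 3. Its partner Itga6 (ENSMUSG00000027111) stood at 275, 248 and 300.2 CPM in Erbb2_OE_Corpus, against 205, 167 and 258 CPM in the controls. The groups overlapped in Itga6, since control replicate 3 lay above Erbb2_OE_Corpus replicate 2, while each of the 3 pairs was higher in Erbb2_OE_Corpus. Itga6 rose 1.32-fold (log2 fold change 0.40, SE 0.08, adjusted p = 0.0229 in edgeR with the block).

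Itga3 (ENSMUSG00000001507), the alpha subunit of a laminin receptor found along the basal and lateral faces of epithelial cells, stood at 274, 258 and 283 CPM in Erbb2_OE_Corpus, against 202, 197 and 245 CPM in the controls. The groups did not overlap, and replicate 3 was the highest library in both. Itga3 rose 1.27-fold (log2 fold change 0.34, SE 0.08, adjusted p = 0.0350 in edgeR with the block). Itga2 (ENSMUSG00000015533), the alpha subunit of a collagen and laminin receptor, stood at 389, 308 and 369 CPM in Erbb2_OE_Corpus, against 266, 130.1 and 300.2 CPM in the controls. Control replicate 2 was far below the other 5 libraries, and the groups did not overlap. The pairs gave log2 CPM ratios of 0.55, 1.25 and 0.30, and the fitted log2 fold change of 0.69 (SE 0.19) had an adjusted p of 0.175 in edgeR with the block. The call changed with the setting: without replicate 3 the log2 fold change of Itga2 was 0.90 and its adjusted p was 0.000985 in edgeR with the block.

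Itgav (ENSMUSG00000027087), the shared alpha subunit of the RGD-binding receptors, stood at 187, 159 and 185 CPM in Erbb2_OE_Corpus, against 139, 95.6 and 153 CPM in the controls. The groups did not overlap, with control replicate 2 again the lowest library. Itgav rose 1.39-fold (log2 fold change 0.47, SE 0.09, adjusted p = 0.0171 in edgeR with the block), with log2 CPM ratios of 0.42, 0.73 and 0.27 in the 3 pairs. Across the 10 integrins, 4 had groups that did not overlap and were higher in Erbb2_OE_Corpus, beside 4.27% of all genes tested, and 0 of the 10 were lower without overlap, beside 4.48% of all genes. These 4 were Itga2, Itga3, Itgav and Itgb4, so that they differ from the 4 called with the block by Itga2 in place of Itga6. The adjusted p in edgeR without the block was 0.9997 for each of the 10 integrins.

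The number of integrins called with the block depended on which pair of libraries was left out. It was 1, Itgb4, without replicate 1, 0 without replicate 2 and 5 without replicate 3, which added Itga2. The genes called higher among all those tested moved alike, with 173 of 12605 without replicate 1, 121 of 12735 without replicate 2 and 769 of 12499 without replicate 3. The log2 fold changes of Itgb4 were then 0.47, 0.38 and 0.56, those of Itgav 0.50, 0.36 and 0.58, those of Itga6 0.39, 0.33 and 0.50 and those of Itga3 0.30, 0.33 and 0.42. Control replicate 2 had the lowest CPM of any library in Itga2, Itga3, Itga6, Itgav and Itgb4. The mitochondrial share of counts was 8.01%, 11.1% and 6.33% in Erbb2_OE_Corpus replicates 1, 2 and 3 and 8.14%, 10.6% and 8.05% in the controls. It was highest in both libraries of replicate 2. With mitochondrial genes and Erbb2 left out, 12584 genes were tested and the block again gave 4 called integrins. That run keeps the counts of all other genes, so it does not address library quality, whose part was not tested.

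**Figure D2:**
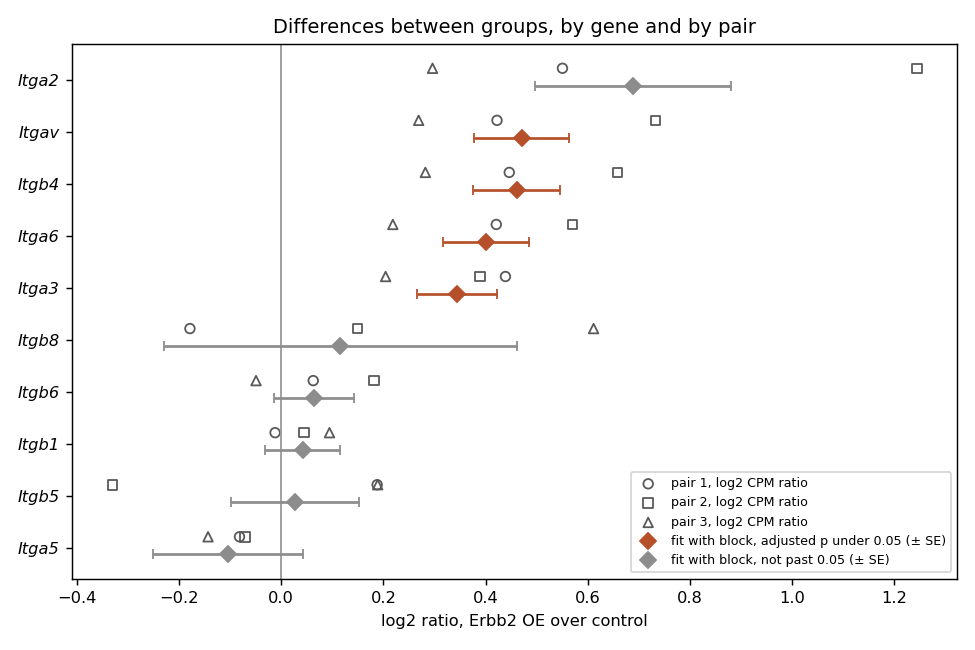
Log2 ratio of Erbb2 OE over control for each integrin gene, ordered by the fit with the replicate block; diamonds are fitted values ± SE, red-brown where the adjusted p was under 0.05, and open symbols are the 3 within-pair CPM ratios. Itga2, Itgav, Itgb4, Itga6 and Itga3 lay above 0 in every pair, and Itga5 lay below 0 in every pair. Itgb8, Itgb6, Itgb1 and Itgb5 had pairs on both sides of 0.

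The sequences before the starts of these genes were set beside the values, since Itga3 and Itgav rose while Itgb6, of comparable CPM, did not pass the test. RefSeq promoters of assembly GRCm38.p6, 250 bases before to 50 after the start, were matched by symbol for 8 of the 10 integrins, all but Itga6 and Itgb4. They are printed for the upstream start of Itga3 (chr11:95076665-95076964, minus strand), for Itgav (chr2:83724147-83724446, plus strand) and for the upstream start of Itgb6 (chr2:60722554-60722853, minus strand). Capitals mark exact matches, on either strand, to GGGCGG (an SP/KLF core), CGGAAG (an ETS core) or TGANTCA (the AP-1 site), none of which overlapped another.
Itga3: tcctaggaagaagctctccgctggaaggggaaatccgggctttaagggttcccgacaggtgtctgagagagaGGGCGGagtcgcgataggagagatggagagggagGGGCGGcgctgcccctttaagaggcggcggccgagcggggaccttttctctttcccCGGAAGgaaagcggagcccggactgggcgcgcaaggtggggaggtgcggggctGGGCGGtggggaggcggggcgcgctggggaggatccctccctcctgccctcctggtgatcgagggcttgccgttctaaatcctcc
Itgav: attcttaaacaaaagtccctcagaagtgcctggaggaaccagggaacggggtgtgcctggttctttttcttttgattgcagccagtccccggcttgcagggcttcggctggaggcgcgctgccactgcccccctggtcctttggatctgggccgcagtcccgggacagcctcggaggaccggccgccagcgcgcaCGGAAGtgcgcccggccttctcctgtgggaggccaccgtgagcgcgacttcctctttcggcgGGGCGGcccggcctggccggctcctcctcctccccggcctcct
Itgb6: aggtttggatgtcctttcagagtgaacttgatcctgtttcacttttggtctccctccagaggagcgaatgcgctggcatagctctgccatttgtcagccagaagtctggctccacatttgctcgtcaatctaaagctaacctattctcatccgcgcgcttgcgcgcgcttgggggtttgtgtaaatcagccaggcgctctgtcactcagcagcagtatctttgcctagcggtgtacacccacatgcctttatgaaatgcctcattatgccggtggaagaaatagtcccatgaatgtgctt
The Itga3 window held 3 matches to GGGCGG and 1 to CGGAAG, the Itgav window 1 and 1, and the Itgb6 window 0 of either. Over the first listed start of the 8 integrins, 6 held GGGCGG, 2 held CGGAAG and 0 held TGANTCA. Among all 32851 promoter windows, which include further starts of a gene, the shares were 35.7%, 16.9% and 7.81%. The second listed start of Itga3, not printed, held 1 match to GGGCGG and 1 to TGANTCA. The G and C content was 66.7% for Itga3, 67.3% for Itgav and 50.3% for Itgb6, beside a median of 52.7% over all windows. Itgb6 does not stand for the other integrins that did not pass. The windows of Itgb1, Itgb5, Itga5, Itga2 and Itgb8 held 1, 3, 2, 1 and 0 matches to GGGCGG. Their G and C content was 67.3%, 65.7%, 58.7%, 59.3% and 60.7%, in that order. Such matches describe letters and do not show that a factor binds.

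The beta partners of Itgav did not pass the test. Itgb6 (ENSMUSG00000026971), the epithelial partner that activates latent TGF-beta, stood at 219, 224 and 191 CPM in Erbb2_OE_Corpus, against 209, 197 and 198 CPM in the controls. The groups overlapped, and the fitted log2 fold change was 0.06 (SE 0.08, adjusted p = 0.743 in edgeR with the block). Itgb5 (ENSMUSG00000022817), which binds vitronectin with Itgav, stood at 27.6, 22.8 and 29.8 CPM in Erbb2_OE_Corpus, against 24.2, 28.6 and 26.1 CPM in the controls. Its pairs lay on both sides of 0, with log2 CPM ratios of 0.19, -0.33 and 0.19 and a fitted value of 0.03 (SE 0.13). Itgb8 (ENSMUSG00000025321), the other activator of latent TGF-beta, had 46, 32 and 30 counts in Erbb2_OE_Corpus and 49, 29 and 19 counts in the controls. At this depth its SE was 0.35 on the log2 scale around a fitted value of 0.12, so that even a change of the size seen in Itgav was not detectable.

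Itgb1 (ENSMUSG00000025809), the common beta subunit, was the steadiest of the 10 in coefficient of variation, at 1.899% over the Erbb2_OE_Corpus libraries, and had 5.08% over the controls, where Itgb6 had 3.38%. It stood at 698, 672 and 684 CPM in Erbb2_OE_Corpus, against 704, 652 and 641 CPM in the controls. The groups overlapped, and its log2 fold change was 0.04 (SE 0.07, adjusted p = 0.830 in edgeR with the block). Itga5 (ENSMUSG00000000555), the alpha subunit of the main fibronectin receptor, stood at 10.7, 8.15 and 15.2 CPM in Erbb2_OE_Corpus, against 11.3, 8.56 and 16.7 CPM in the controls. Its level followed the replicate number, with replicate 3 highest and replicate 2 lowest in both groups, and its log2 fold change of -0.10 (SE 0.15) did not pass.

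Levels of different genes were compared as CPM per kilobase of the merged exons of each gene. Itgb1 was highest, at 168 ± 3.19 in Erbb2_OE_Corpus and 163 ± 8.29 in the controls (CPM per kilobase, SD, n = 3 each). Itgb4 followed at 61.0 ± 1.69 in Erbb2_OE_Corpus and 44.6 ± 6.77 in the controls. Below it, by the mean over all 6 libraries, came Itga3, Itga2, Itgb6 and Itga6. By the Erbb2_OE_Corpus means alone Itga2, at 49.8 ± 5.90, stood before Itga3, at 47.6 ± 2.17, and Itga6, at 30.4 ± 2.92, before Itgb6, at 29.7 ± 2.44 CPM per kilobase (SD, n = 3), and neither pair differed beyond its spread. In the controls each gene from Itgb4 to Itga6 overlapped with the next. In Erbb2_OE_Corpus, Itgb4 stood clear of Itga3 and Itga2 of Itgb6. Itgav at 16.4 ± 1.44 and 12.04 ± 2.80, Itgb5 at 7.52 ± 1.01 and 7.41 ± 0.618, Itga5 at 2.30 ± 0.719 and 2.47 ± 0.843 and Itgb8 at 0.153 ± 0.0356 and 0.142 ± 0.0659 CPM per kilobase, in Erbb2_OE_Corpus and in the controls, each stood apart from their neighbours in both groups. The place of Itga6 rested on the length used: with its longest transcript of 4310 bases in place of merged exons of 9025 bases it moved up to rank 3, at 63.6 ± 6.11 CPM per kilobase in Erbb2_OE_Corpus and 48.7 ± 10.6 in the controls.

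**Figure D3:**
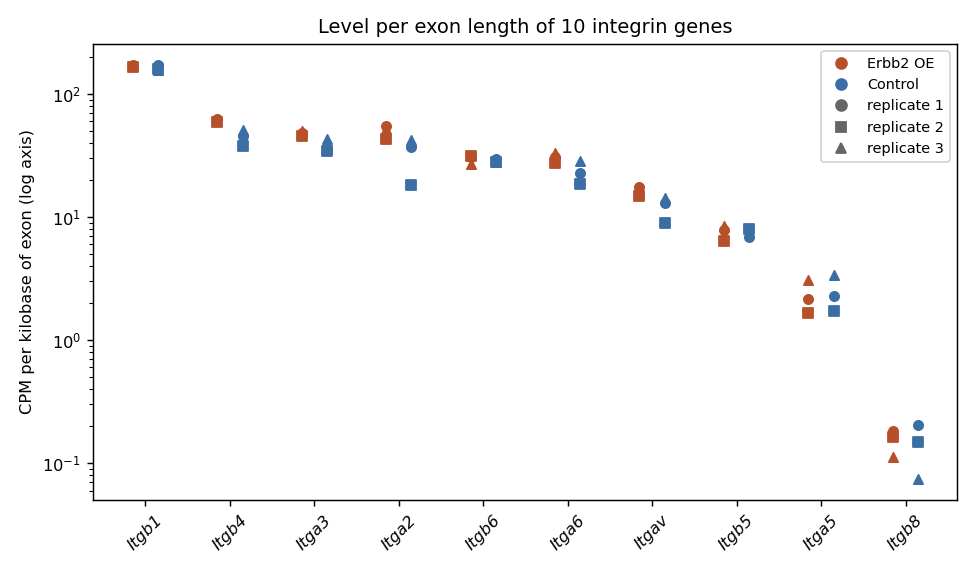
CPM per kilobase of merged exons on a log axis for the 10 integrin genes, with Erbb2 OE (red-brown) left of control (blue) and 1 symbol per library. Itgb1 leads at 168 and 163 on average, and Itgb8 is lowest, at 0.153 and 0.142, in Erbb2 OE and in control.

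Ratios within a library do not depend on its scaling, and they are given without a test. Itgb4 over Itga6, per kilobase, was 2.04, 2.15 and 1.86 in Erbb2_OE_Corpus replicates 1, 2 and 3, against 2.003, 2.03 and 1.78 in the controls. It was higher in Erbb2_OE_Corpus in each of the 3 pairs, while the groups overlapped and the difference of the means was smaller than the SD of either group (0.148 in Erbb2_OE_Corpus and 0.136 in the controls). The size of the ratio rested on the length used, since with longest transcripts it averaged 1.089 in Erbb2_OE_Corpus and 1.045 in the controls. Among Itgb5, Itgb6 and Itgb8, Itgb6 held 79.5%, 82.7% and 76.0% of the summed level per kilobase in Erbb2_OE_Corpus, against 80.7%, 77.2% and 79.0% in the controls. Itgb8 held at most 0.469% in Erbb2_OE_Corpus and 0.563% in the controls. The summed level of Itga2, Itga3, Itga5, Itga6 and Itgav over that of Itgb1, a ratio chosen after the values were seen, was 0.891, 0.803 and 0.923 in Erbb2_OE_Corpus, against 0.641, 0.513 and 0.836 in the controls. It was higher in Erbb2_OE_Corpus in each pair, and control replicate 3 lay above Erbb2_OE_Corpus replicate 2.

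**Figure D4:**
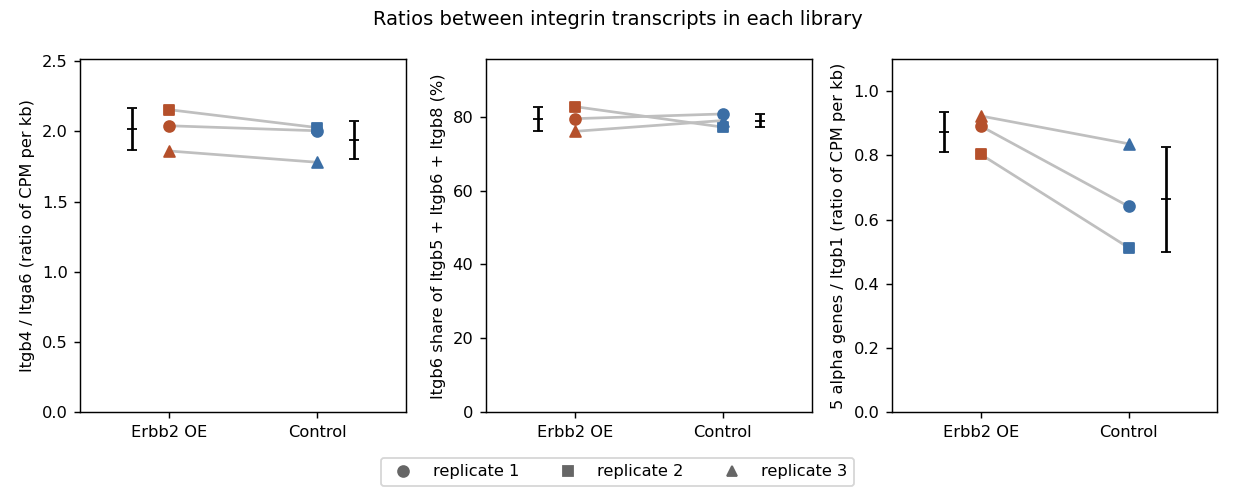
Ratios of levels per kilobase in each library, with Erbb2 OE left of control, grey lines joining the same replicate number and bars for mean ± SD of 3 libraries; all axes start at 0. The groups overlapped in every panel. The ratio of the 5 alpha genes to Itgb1, chosen after the values were seen, averaged 0.872 in Erbb2 OE and 0.663 in control.

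Among the genes whose log2 CPM over the 6 libraries was most like that of Itgb4, the integrin with the smallest p with the block, were Ipo4, Aqp4, Gch1 and Pdzd7, with Pearson's r between 0.991 and 0.993 across 6 libraries that share replicate numbers. They were picked for the highest r among all 12593 genes tested, and r mixes the group difference with the replicate pattern. In edgeR with the block their adjusted p was 0.0873, 0.174, 0.0451 and 0.0609, in that order. Ipo4 encodes an importin, Aqp4 a water channel, Gch1 the GTP cyclohydrolase that starts tetrahydrobiopterin synthesis and Pdzd7 a PDZ scaffold protein. Among the 10 integrins, r with Itgb4 was 0.964 for Itgav, 0.952 for Itga3, 0.947 for Itga6 and 0.938 for Itga2. It was 0.396 for Itgb1, 0.342 for Itgb6, 0.278 for Itga5, -0.05 for Itgb5 and -0.07 for Itgb8.

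Of 16 other integrin genes, 13 alpha and 3 beta, 6 had enough counts to be tested, and 2 alpha subunits rose. Itga1, the alpha subunit of a collagen receptor, stood at 47.5, 46.8 and 46.5 CPM in Erbb2_OE_Corpus, against 33.4, 27.3 and 27.4 CPM in the controls. The groups stood well apart, and Itga1 rose 1.601-fold (adjusted p = 0.00401 in edgeR with the block). It kept an adjusted p under 0.05 without each pair in turn, with 0.00805, 0.0389 and 9.40e-06 in edgeR with the block. Itga9, which binds tenascin and osteopontin, rose 2.40-fold with the block (adjusted p = 0.00745 in edgeR), from levels that overlapped between the groups, with 9.20, 6.23 and 19.1 CPM in Erbb2_OE_Corpus and 3.8002, 1.41 and 9.55 CPM in controls. Itgb3, another beta partner of Itgav, was the 1 beta subunit tested and did not pass. It stood at 0.566 ± 0.0867 CPM in Erbb2_OE_Corpus and 0.296 ± 0.124 CPM in the controls (SD, n = 3 each). The untested members, among them the leukocyte subunits Itgal, Itgam, Itgax and Itgb2, reached at most 0.473 CPM in any library for alpha and 0.226 CPM for beta subunits.

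Genes that act on integrins from inside the cell made up 3 of the lists described here. Of 5 tested genes for talins, kindlins and other activators, 0 passed the test. Tln1, the talin that links beta tails to actin, stood at 142 ± 10.4 CPM in Erbb2_OE_Corpus and 117 ± 11.5 CPM in the controls (log2 fold change 0.28, adjusted p = 0.149 in edgeR with the block). For Fermt1, the epithelial kindlin, the fitted log2 value was 0.17 (adjusted p = 0.267). Of 15 tested focal adhesion adaptors, 1 rose: Tns4, a tensin without an actin-binding part, 1.70-fold (adjusted p = 0.0115), with 455, 284 and 1112 CPM in Erbb2_OE_Corpus, against 314, 126 and 729 CPM in the controls. Tns4 overlapped widely between the groups and was highest in replicate 3 of both. With the block, DESeq2 called 3 of the adaptors higher, edgeR's older form 2 and edgeR without replicate 3 called 4. Of 14 tested focal adhesion kinases and signalling genes, 0 passed. Ptk2b, a relative of focal adhesion kinase, was fitted at 0.42 on a log2 scale and the adaptor Nedd9 at 0.18, with adjusted p = 0.136 and 0.243. The median log2 fold changes of these 3 lists were 0.13, 0.06 and 0.02 with the block, beside -0.01 over all genes.

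Of 3 tested hemidesmosome partners of Itgb4, 1 rose: Plec, the plectin gene, 1.29-fold (adjusted p = 0.0487 in edgeR with the block), with 226, 287 and 122 CPM in Erbb2_OE_Corpus, against 208, 202 and 87.6 CPM in the controls. Plec overlapped between the groups, and its adjusted p with the block was 0.4001 without replicate 2 in edgeR, 0.0586 with limma voom, 0.0502 with relative log expression and 0.0623 with no filter on low counts. The remaining hemidesmosome gene of the list, Col17a1, the transmembrane collagen of these plaques, reached at most 0.301 CPM. Of 11 tetraspanins and lateral partners, 1 rose and 1 fell. Slc3a2, the heavy chain that binds beta subunits and carries amino acid transporters, rose 1.38-fold to 140 ± 21.8 CPM in Erbb2_OE_Corpus, against 102 ± 23.7 CPM in the controls (SD, n = 3 each, adjusted p = 0.0102 in edgeR with the block). Its groups overlapped, with Erbb2_OE_Corpus replicate 2 at 115 CPM and control replicate 3 at 119 CPM. Cd9, a tetraspanin, fell to 1422 ± 280 CPM in Erbb2_OE_Corpus, against 1781 ± 424 CPM in the controls (log2 fold change -0.32, adjusted p = 0.0451), and its groups overlapped. Neither call held in edgeR with the block without replicate 2, where the adjusted p was 0.147 for Slc3a2 and 0.4503 for Cd9. For Cd9 it was also above the threshold without replicate 1 (0.161), with relative log expression (0.0526) and with no filter on low counts (0.0527).

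Ligand genes were measured in the same organoids. Of 8 tested laminin genes, 2 rose and 0 fell: Lama5, of the laminin alpha chains in mature epithelial basement membranes, 1.46-fold, and Lamb1, a laminin beta chain, 1.85-fold (adjusted p = 0.00830 and 0.0213 in edgeR with the block). Lama5 stood at 477, 396 and 508 CPM in Erbb2_OE_Corpus, against 345, 224 and 396 CPM in the controls, and Erbb2_OE_Corpus replicate 2 lay just below control replicate 3. Lamb1 stood at 23.2, 13.9 and 29.8 CPM in Erbb2_OE_Corpus, against 8.53, 7.55 and 21.6 CPM in controls, with overlap between the groups. In edgeR with the block but without replicate 2 neither laminin gene passed, with adjusted p = 0.117 for Lama5 and 0.0641 for Lamb1, and without replicate 1 Lamb1 did not pass (0.107). Of 5 tested collagen genes 0 passed in edgeR with the block, against 2 higher with DESeq2, with limma voom, without replicate 2 and without replicate 3, each with the block. Col4a1, of the collagen of basement membranes, was fitted at 1.07 in log2 units, with an adjusted p of 0.0855, and Col4a5 at 0.33, with 0.116. Of 7 tested RGD, fibronectin and matricellular ligands 0 passed, against 1 higher with DESeq2 and with limma voom and 2 higher and 1 lower without replicate 3, each with the block. The edgeR fit gave Thbs1 0.36 and Ccn2 0.28 in log2 units, with adjusted p-values of 0.143 and 0.158 in edgeR with the block. Of 7 tested genes for TGF-beta ligands and their latency proteins, 1 rose: Ltbp3, a latent TGF-beta binding protein. It rose 1.47-fold to 171 ± 28.4 CPM in Erbb2_OE_Corpus, against 120 ± 42.5 CPM in the controls (SD, n = 3 each, adjusted p = 0.0263 in edgeR with the block). Ltbp3 overlapped between the groups and had an adjusted p of 0.1698 without replicate 2 in edgeR with the block. In this list the block gave 3 higher genes with DESeq2 and 4 in edgeR without replicate 3.

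**Figure D5:**
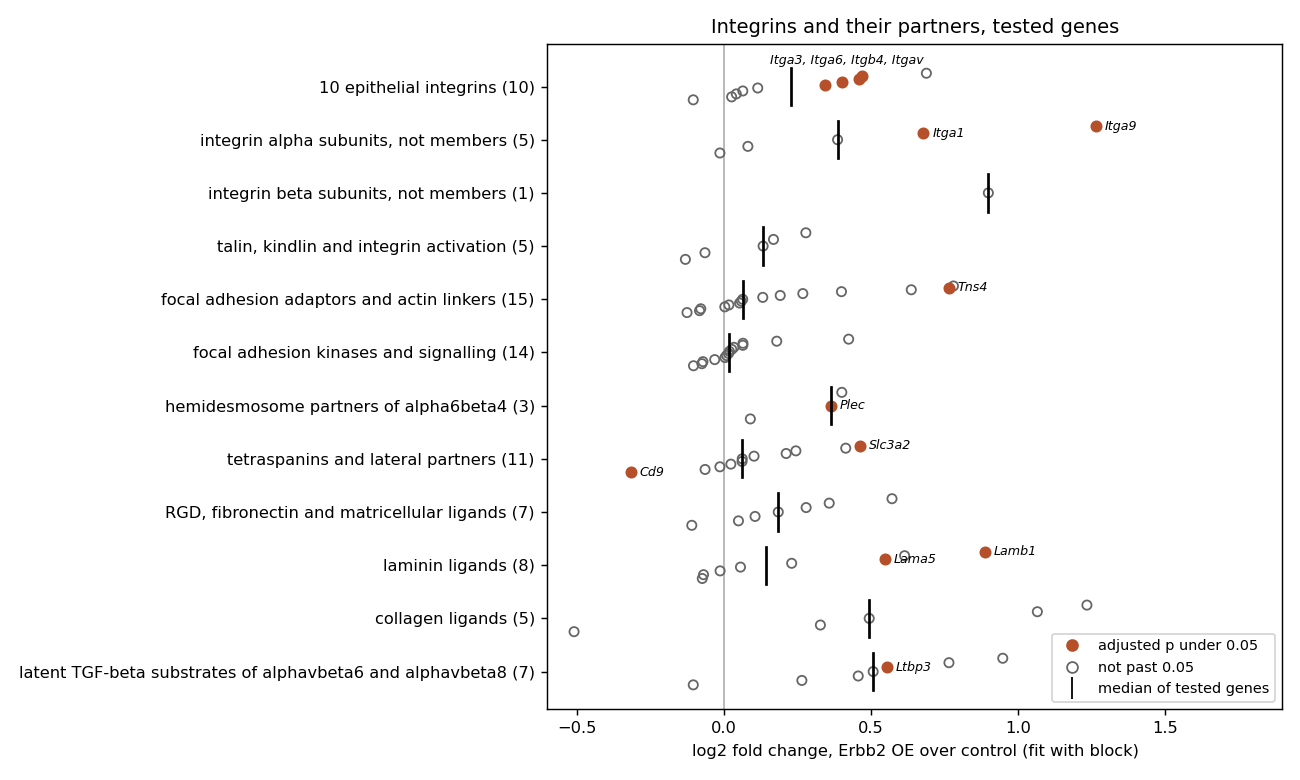
Log2 fold change of Erbb2 OE over control, from the fit with the replicate block, for every tested gene of the integrins and of 11 pathway lists, with the number tested in brackets. Filled points had an adjusted p under 0.05, black ticks are list medians, and every filled point except Cd9 lies above 0.

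Genes of squamous epithelium, where Itgb4 and Itga6 mark the basal layer, were read beside the integrins. The summed level of 9 basal or squamous markers was 434 to 656 CPM in Erbb2_OE_Corpus, against 207 to 321 CPM in the controls, and 2 of the 5 tested rose with the block, Sprr1a and Ivl, which encode parts of the cornified envelope. Of the basal layer markers, Krt5 had at most 0.375 CPM, Krt14 at most 0.185 CPM and Trp63 at most 0.0436 CPM. Krt15, another basal keratin, stood at 2.22, 3.28 and 1.75 CPM in Erbb2_OE_Corpus, against 1.39, 1.18 and 1.205 CPM in the controls, without overlap, and did not pass the test (log2 fold change 0.89, adjusted p = 0.209 in edgeR with the block). Sprr1a made up most of the sum, with 571, 399 and 614 CPM in Erbb2_OE_Corpus, against 281, 197 and 302 CPM in the controls. Immune markers summed to between 18.6 and 74.0 CPM in Erbb2_OE_Corpus and between 20.8 and 54.9 CPM in the controls, with Tyrobp at 0 counts throughout. Cd68 made up most of this sum, with 34.8, 17.3 and 72.8 CPM in Erbb2_OE_Corpus, against 22.7, 18.3 and 52.9 CPM in the controls. Ptprc reached at most 1.97 CPM. Endothelial markers summed to between 2.83 and 15.2 CPM in Erbb2_OE_Corpus and between 3.66 and 6.75 CPM in the controls, with Emcn at 0. In the library with 15.2 CPM, Erbb2_OE_Corpus replicate 3, Tek alone held 8.95 CPM. The part of the Sprr1a and Ivl levels in the integrin differences was not tested.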

How the data were processed

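RNA from 6 organoid libraries was measured by sequencing. The authors deposited 1 table of whole-number counts per gene for each library, with no scaling, per the file headers. The submitters' processing notes name STAR, featureCounts and GRCm39. They give neither versions nor a strand setting, so that a gene and an antisense partner cannot be told apart. In the GENCODE M21 annotation of GRCm38, exons of Itgav and Itgb4 overlap noncoding genes of the opposite strand. Symbols were matched by Ensembl ID for 25424 of 25528 genes, and lengths came from the same annotation.

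Genes were kept by filterByExpr with a minimum count of 10 (12593 genes), scaled by TMM and tested across all genes with the quasi-likelihood F test of edgeR 4.0.16 in R 4.3.3 (two-sided, robust, Benjamini-Hochberg, threshold 0.05). The SE is the log2 fold change over the square root of F. Scripts were tested on simulated data. The design had the group alone; the replicate number as a block was an alternative fixed with it. Deviations from group means correlated across genes at 0.333, 0.660 and 0.707 between libraries numbered 1, 2 and 3, so that values with the block are given. With 3 libraries in a group the deviations cancel out, so these correlations are not independent of each other. They also come from the data that were then tested. The labels do not say what a number marks, so this correlation is the source of the pairing. DESeq2 1.42.0, limma 3.58.1 (voom), other scalings and filters, and left-out libraries were also tried. Libraries of a group differed beyond sampling noise, with chi-square values from 33.5 to 126 per degree of freedom. The integrins and the 12 gene lists (120 genes) were chosen with earlier results of these data known, and the result of 1 list is not reported here. Genes named from the lists are those past the threshold, or otherwise the 2 with the smallest p with the block.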

Additional observations from a re-analysis of the deposited data

How the results depend on the processing

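Without the block, 0 of the 10 integrins were called under any alternative run, and all genes called were 0 except 30 with DESeq2 and 1 without control replicate 3, a range of 0 to 1 over the left-out libraries. With the replicate block the counts of called integrins and of all genes were 4 and 389, with DESeq2 4 and 460, with limma voom 5 and 376, with relative log expression 4 and 395, with upper-quartile scaling 4 and 380, with no filter on low counts 4 and 345, with mitochondrial genes and Erbb2 removed 4 and 389, and with edgeR's older quasi-likelihood form 4 and 405. With the block and each pair left out in turn the integrins called ranged from 0 to 5 and all genes from 145 to 1089 (213 without replicate 1). The cause of these differences between pairs was not tested, and a left-out pair also leaves fewer libraries. Signs changed in genes that were not called in the fit without the block. There, Itgb5 ranged from -0.0618 to 0.12 over the left-out libraries (-0.0019 without Erbb2_OE_Corpus replicate 1, -0.0618 without its replicate 3 and -0.0345 without control replicate 1). Itgb8 ranged from -0.23 to 0.49 (-0.0516 without Erbb2_OE_Corpus replicate 1, -0.23 without control replicate 3), Itga5 from -0.38 to 0.20 (0.0756 without Erbb2_OE_Corpus replicate 2, 0.20 without control replicate 3), Tns4 from -0.0778 to 1.497 and Ccn2 from -0.15 to 0.63, both lowest without Erbb2_OE_Corpus replicate 3. With the block, Itgb5 ranged from -0.0619 without replicate 1 to 0.20, with -0.0541 without replicate 3, and Itgb8 from -0.0384 without replicate 3 to 0.36. Itgb8, with 19 to 49 counts per library, is limited by depth. Median log2 fold changes of all genes stayed within 0.02 of 0 under every setting.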
